A study of Mus musculus with 8 samples.

Results

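The IgLON family of cell adhesion genes was examined in PDGFRA+ cells sorted from mouse hearts. The members were the rows of the count files with the gene symbols *Lsamp*, *Ntm*, *Negr1* and *Opcml*, which are 4 of the 18957 genes listed, and all 8 libraries were used. *Iglon5*, the other gene of the family, was also listed and is given beside them. The family was chosen by the genotype difference of *Lsamp* in these same libraries, so the genotype differences of its members are given as a description, with no p.

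IgLONs are small glycoproteins built of immunoglobulin domains and held on the outer face of the cell membrane by a glycosylphosphatidylinositol (GPI) anchor. They bind one another, as like or unlike pairs, between neighbouring cells and on the same cell, and they are best known from neurons, where they take part in neurite outgrowth and in the forming of synapses. Surface proteases can release them from the membrane. *Lsamp* encodes the limbic system-associated membrane protein, *Negr1* neuronal growth regulator 1, *Ntm* neurotrimin and *Opcml* the opioid-binding cell adhesion molecule.

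The study asked what loss of *Lmna*, the gene of lamins A and C, does in cardiac fibroblasts. Pdgfra-Cre:LmnaF/F mice carried floxed exon 2 of *Lmna* on both alleles and a BAC transgene in which *Pdgfra* sequences drive Cre, whereas WT mice carried neither, so that effects of Cre itself and of the loss of *Lmna* cannot be told apart, and Cre also acts in some cardiac myocytes. The mice were 3 to 4 weeks old and of a mixed C57BL/6 background, and living cells positive for PDGFRA and negative for lineage markers were sorted from the ventricles of 4 mice of each genotype, with 1 mouse per library. RNA was sequenced after ribosomal depletion, and each value is a count of reads per gene.

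Total counts ranged from 2080555 to 10741519 in the WT libraries and from 8284882 to 12502949 in the Pdgfra-Cre:LmnaF/F libraries, and the lowest total was that of WT replicate 2. Levels within a gene are given as CPM, the counts of the gene in every 1000000 counts of a library after TMM scaling. *Lmna* lay between 273.7 and 482.9 CPM in WT and between 90.4 and 130.0 CPM in Pdgfra-Cre:LmnaF/F, with a log2 fold change of -1.72 ± 0.22 (SE, n = 4 per genotype, edgeR quasi-likelihood test, Benjamini-Hochberg adjusted p = 0.00492). The label of the cells was checked against 10 mesenchymal markers, which summed to 84860.8 to 100591.7 CPM in WT and to 83031.9 to 95944.3 CPM in Pdgfra-Cre:LmnaF/F. *Gsn* was the largest part of these sums, with means of 39627 CPM in WT and 41321 CPM in Pdgfra-Cre:LmnaF/F. Of the 10 markers, 6 were lower and 4 higher in Pdgfra-Cre:LmnaF/F, with 0 at an edgeR adjusted p under 0.05. *Pdgfra*, the gene of the sorted receptor, was at 1752.9 ± 351.6 CPM (SD, n = 4) in WT and 2160.2 ± 433.9 CPM (SD, n = 4) in Pdgfra-Cre:LmnaF/F.

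The genes of the members are long. On mm10, as given by GENCODE M21, *Lsamp* (ENSMUSG00000061080.11) lies on the plus strand at chr16:39984361-42181679, and its span of 2197.3 kb is the 5th longest among 18918 listed genes with a model. *Negr1* (ENSMUSG00000040037.13) lies on the plus strand at chr3:156561794-157316445 and spans 754.7 kb. *Opcml* (ENSMUSG00000062257.13), on the plus strand at chr9:27790775-28925410, and *Ntm* (ENSMUSG00000059974.10), on the minus strand at chr9:28994750-29963141, are neighbours on chromosome 9 tail to tail, with 69.3 kb between them. *Iglon5* (ENSMUSG00000013367.5), on the minus strand at chr7:43472904-43490075, is the short gene of the family, with a span of 17.2 kb. None of the annotated genes that overlap a member shares exon bases with it, and none of them is listed in the files. Among the transcripts of the 5 genes, 75 sequences of 50 bases occur in both *Opcml* and *Ntm* and none in any other pair.

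RefSeq promoters on GRCm38.p6 were found for all 5 genes, with 7 starts in all. The 250 bases before the starts of *Lsamp* and *Negr1* are shown because these are the members with counts in every library, and because *Lsamp* has a pair of starts. They are written 5' to 3' on the strand of the gene, with each CpG in capitals.

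Lsamp, first start, chr16:39984114-39984363, plus strand: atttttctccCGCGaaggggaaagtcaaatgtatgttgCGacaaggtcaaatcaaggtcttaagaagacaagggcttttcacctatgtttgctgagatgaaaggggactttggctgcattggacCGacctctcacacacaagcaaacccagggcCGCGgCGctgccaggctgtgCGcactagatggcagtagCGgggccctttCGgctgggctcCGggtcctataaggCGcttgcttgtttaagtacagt

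Lsamp, second start, chr16:41532576-41532825, plus strand: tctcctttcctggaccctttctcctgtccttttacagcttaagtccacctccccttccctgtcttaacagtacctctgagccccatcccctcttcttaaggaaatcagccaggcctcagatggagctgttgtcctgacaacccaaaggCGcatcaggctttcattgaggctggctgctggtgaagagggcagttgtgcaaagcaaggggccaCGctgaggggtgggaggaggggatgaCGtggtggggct

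Negr1, chr3:156561544-156561793, plus strand: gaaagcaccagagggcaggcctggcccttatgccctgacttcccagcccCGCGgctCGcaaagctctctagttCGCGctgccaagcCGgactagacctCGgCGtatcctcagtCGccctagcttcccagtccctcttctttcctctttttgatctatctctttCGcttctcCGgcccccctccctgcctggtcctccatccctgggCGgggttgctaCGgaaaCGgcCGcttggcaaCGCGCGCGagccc

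The window before the first start of *Lsamp* holds 12 CpG and 53.2% G and C, and that before its second start holds 3 CpG. The *Negr1* window holds 19 CpG, more than 80.3% of the 32851 RefSeq promoters cut to the same length, whose median is 6 CpG. The letters TATAA, looked for on both strands, occur before the first start of *Lsamp*, 29 bases before the start, and in none of the other 6 windows of the family, and they occur in 22.8% of all these promoters. Gene counts do not tell which start was used, and these letters are given as a description of the windows.

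*Lsamp* was lower in every Pdgfra-Cre:LmnaF/F library than in any WT library, whereas the *Negr1* values of the genotypes overlapped and *Opcml* and *Ntm* were near the lower limit of what these libraries can count. In WT replicates 1 to 4 *Lsamp* had 668, 58, 873 and 860 counts, which is 62.4, 29.2, 139.5 and 89.0 CPM. In Pdgfra-Cre:LmnaF/F replicates 1 to 4 it had 182, 117, 155 and 93 counts, which is 18.8, 12.2, 17.8 and 7.75 CPM. The groups did not overlap, and WT replicate 3 was the highest library and WT replicate 2 the lowest of its genotype. The mean was 80.0 ± 46.6 CPM (SD, n = 4) in WT and 14.2 ± 5.17 CPM (SD, n = 4) in Pdgfra-Cre:LmnaF/F. The fitted log2 fold change was -2.51 ± 0.42 (SE), that is 5.70-fold lower in Pdgfra-Cre:LmnaF/F. Of the 13036 genes tested, 518 (3.97%) had every Pdgfra-Cre:LmnaF/F library below every WT library. In bulk RNA, fewer cells of a type that express a gene and less RNA of it per cell cannot be told apart.

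*Lsamp* was the only member among the genes with an adjusted p under 0.05 in edgeR, which were 53 (0.407%) of the genes tested in either direction and 31 (0.238%) in the direction of *Lsamp*. Since this contrast chose the family, nothing is read from that count. The count of members was 0 in the fits without WT replicate 4, without Pdgfra-Cre:LmnaF/F replicate 2 and without Pdgfra-Cre:LmnaF/F replicate 3, in which the log2 fold change of *Lsamp* was -2.46, -2.45 and -2.64. Over all 17 alternative fits this log2 fold change lay between -2.78 and -2.11.

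*Negr1*, whose protein is a membrane-anchored regulator of neurite growth, had 799, 57, 376 and 734 counts in WT replicates 1 to 4, which is 74.7, 28.7, 60.1 and 76.0 CPM. In Pdgfra-Cre:LmnaF/F replicates 1 to 4 it had 545, 764, 358 and 435 counts, which is 56.4, 79.7, 41.2 and 36.2 CPM. Both the lowest value, of WT replicate 2, and the highest, of Pdgfra-Cre:LmnaF/F replicate 2, lie outside the range of the other genotype. The groups overlap through these libraries, and the other 3 Pdgfra-Cre:LmnaF/F values lie below the other 3 WT values. The means were 59.9 ± 22 CPM (SD, n = 4) in WT and 53.4 ± 19.5 CPM (SD, n = 4) in Pdgfra-Cre:LmnaF/F, with a fitted log2 fold change of -0.18 ± 0.32 (SE). Across all alternative fits the value of *Negr1* stayed between -0.44 and -0.04.

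**Figure D1:**
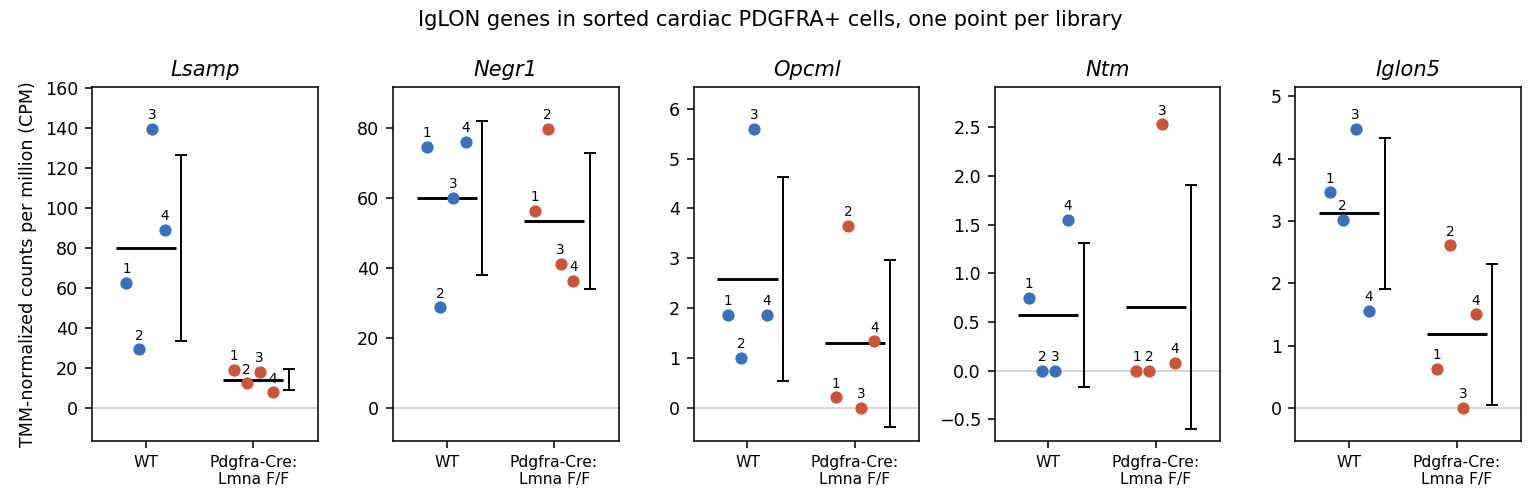
CPM of the 5 IgLON genes in each library (y axis, linear, with its own range in each panel) by genotype (x axis). Points are libraries labelled with their replicate number, horizontal lines are means and bars are SD (n = 4). *Lsamp* does not exceed 18.8 CPM in Pdgfra-Cre:LmnaF/F and is at least 29.2 CPM in WT, while the other 4 genes overlap between the genotypes.

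*Opcml* was counted at low levels in both genotypes. It had 20, 2, 35 and 18 counts in WT replicates 1 to 4, which is 1.87, 1.01, 5.59 and 1.86 CPM, and 2, 35, 0 and 16 counts in Pdgfra-Cre:LmnaF/F replicates 1 to 4, which is 0.207, 3.65, 0 and 1.33 CPM. The groups overlap, and 1 WT library and 2 Pdgfra-Cre:LmnaF/F libraries were at or below 3 counts, taken here as the floor, which corresponds to 0.249 to 0.478 CPM in the deeper libraries and to 1.5 CPM in WT replicate 2. The fitted log2 fold change was -1.0 ± 1.37 (SE) and moved from -2.29 without Pdgfra-Cre:LmnaF/F replicate 2 to -0.31 without WT replicate 3.

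*Ntm* had 8, 0, 0 and 15 counts in WT replicates 1 to 4, which is 0.747, 0, 0 and 1.55 CPM. In Pdgfra-Cre:LmnaF/F replicates 1 to 4 it had 0, 0, 22 and 1 counts, which is 0, 0, 2.53 and 0.0833 CPM. Both genotypes summed to 23 counts, of 29041408 counts in WT and 39521144 in Pdgfra-Cre:LmnaF/F, and nearly all counts of the latter came from replicate 3. *Ntm* did not pass the filter on low counts and was the 1 member of 4 that was not tested in the reported fit. No log2 fold change is given for it, and these counts are too few to describe a difference between the genotypes.

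*Iglon5*, the family gene outside the member list, had 37, 6, 28 and 15 counts in WT and 6, 25, 0 and 18 counts in Pdgfra-Cre:LmnaF/F replicates 1 to 4. WT lay between 1.55 and 4.47 CPM and Pdgfra-Cre:LmnaF/F between 0 and 2.61 CPM. The mean was 3.13 ± 1.21 CPM (SD, n = 4) in WT and 1.18 ± 1.13 CPM (SD, n = 4) in Pdgfra-Cre:LmnaF/F, and the ranges overlap. Its fitted log2 fold change was -1.39 ± 1.27 (SE) and moved from -2.11 without Pdgfra-Cre:LmnaF/F replicate 2 to -0.98 without Pdgfra-Cre:LmnaF/F replicate 3.

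Levels of different genes were compared per length, as RPKM, the CPM divided by the length in kilobases, over the union of annotated exons. In WT the order of mean RPKM was *Negr1* (5.70 ± 2.09), *Lsamp* (4.65 ± 2.71), *Iglon5* (1.19 ± 0.463), *Opcml* (0.178 ± 0.141) and *Ntm* (0.0712 ± 0.0917; SD, n = 4 for each). The ranges of *Negr1* (2.73 to 7.23 RPKM) and *Lsamp* (1.70 to 8.10 RPKM) overlapped, as did those of *Lsamp* and *Iglon5* (0.592 to 1.71 RPKM) and those of *Opcml* and *Ntm*. *Opcml* lay below *Iglon5* without overlap on this length. In mean RPKM, *Negr1* stood above 65.5% and *Lsamp* above 61.4% of the listed genes with a model in WT.

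In Pdgfra-Cre:LmnaF/F the mean RPKM was 5.08 ± 1.86 for *Negr1*, 0.822 ± 0.301 for *Lsamp*, 0.451 ± 0.432 for *Iglon5*, 0.0894 ± 0.115 for *Opcml* and 0.0810 ± 0.155 for *Ntm* (SD, n = 4 for each). *Negr1* (3.45 to 7.58 RPKM) no longer overlapped with *Lsamp* (0.450 to 1.09 RPKM), and the range of *Lsamp* overlapped with that of *Iglon5* (0 to 0.994 RPKM). *Lsamp* stood above 38.2% and *Negr1* above 62.5% of genes in this genotype. In RPKM on the longest transcript the order of *Negr1* and *Lsamp* was the same in both genotypes, with means of 12 and 9.10 in WT and 10.7 and 1.61 in Pdgfra-Cre:LmnaF/F. On that length, however, the WT ranges of *Lsamp* (3.32 to 15.9 RPKM) and *Iglon5* (0.592 to 1.71 RPKM) did not overlap, and those of *Iglon5* and *Opcml* (0.151 to 0.838 RPKM) did, so these relations depend on the length used.

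The ratio of *Lsamp* to *Negr1* counts within a library does not depend on the scaling of libraries. It was 0.836, 1.02, 2.32 and 1.17 in WT replicates 1 to 4 and 0.334, 0.153, 0.433 and 0.214 in Pdgfra-Cre:LmnaF/F replicates 1 to 4. The groups did not overlap, and WT replicate 2, which had the lowest CPM of both genes in WT, had a ratio inside the range of the other WT libraries. *Lsamp* made up 37.3% ± 10 (SD, n = 4) of the summed RPKM of the 5 family genes in WT and 13.3% ± 5.67 (SD, n = 4) in Pdgfra-Cre:LmnaF/F, and *Negr1* 49.1% ± 9.65 (SD, n = 4) and 77.3% ± 2.84 (SD, n = 4). The summed RPKM of the family was 5.65 to 15.9 in WT and 4.57 to 9.54 in Pdgfra-Cre:LmnaF/F, and these ranges overlap. Because *Lsamp* enters every one of these shares, they describe the same difference on another scale.

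**Figure D2:**
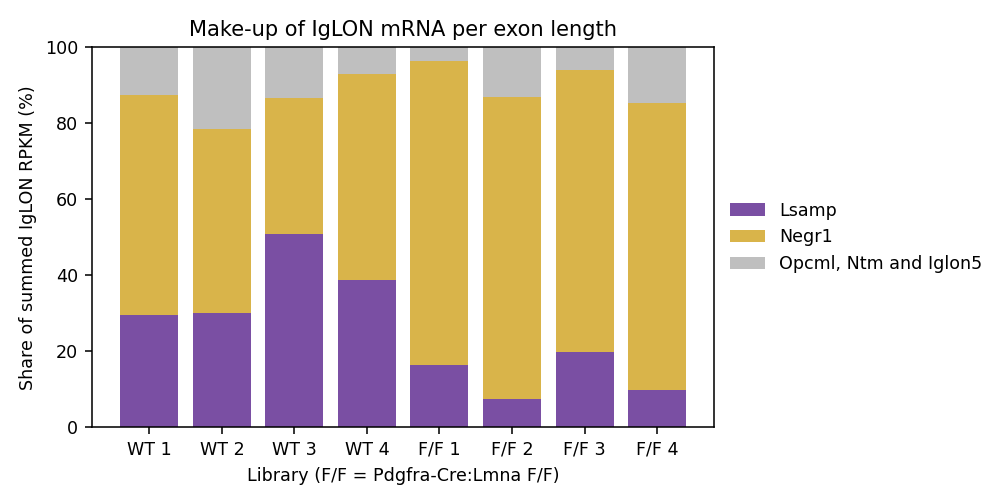
Share of the summed RPKM of the 5 IgLON genes (y axis, %) in each library (x axis), with *Lsamp* at the bottom, *Negr1* above it and the other genes on top. *Lsamp* takes 29.5% to 50.9% in WT and 7.43% to 19.7% in Pdgfra-Cre:LmnaF/F.

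The span of the genes was set beside the genotype difference, since 4 of the 5 family genes are among the 102 longest of the genes with a model. Of 219 listed genes that span at least 500 kb, 152 were tested, among them *Lsamp*, *Negr1* and *Opcml*. None of the other 149 long genes was called by edgeR, with 15 at an unadjusted p under 0.05, beside 1550 (11.9%) of all genes tested. DESeq2 called 2 of them, *Sema6d* and *Zbtb20*, beside 2.32% of all genes tested, and limma-voom called 1, *Sema6d*, beside 0.967%. None of the 149 had a log2 fold change as low as that of *Lsamp*. That value ranked 49th lowest of all 13036 genes tested, so few genes of any span were as low. The median log2 fold change of the 149 was 0.17, with 86 above 0 and 63 below 0, beside a median of 0.02 over all genes tested.

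**Figure D3:**
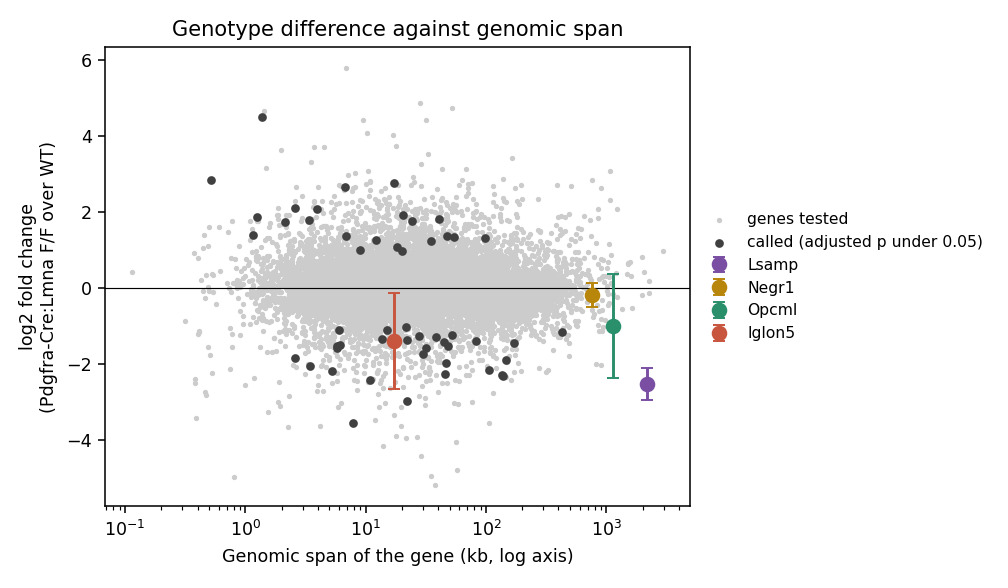
Log2 fold change of Pdgfra-Cre:LmnaF/F over WT (y axis) against the genomic span of each tested gene (x axis, kb, log scale). Dark points are the called genes, and coloured points are IgLON genes with bars of 1 SE. *Lsamp*, at 2197.3 kb and -2.51, lies at the lower right.

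The listed genes next to the 4 members, 3 on each side, were read from the same contrast. They were 18 genes outside the family, of which 14 were tested, and edgeR called none, with 1 at an unadjusted p under 0.05. That gene was *Zbtb20*, a zinc finger transcription factor gene 694.2 kb beyond *Lsamp*, which was at 1199.8 ± 170.3 CPM in WT and 806 ± 53.3 CPM in Pdgfra-Cre:LmnaF/F (SD, n = 4), with a log2 fold change of -0.57 ± 0.19 (SE, edgeR adjusted p = 0.227). DESeq2 called it as the 1 neighbour of 14 past its threshold, beside 2.32% of all genes tested, and limma-voom called none. *Gap43*, which encodes a growth cone protein and begins 66.8 kb beyond *Lsamp*, was at 2.22 ± 2.23 CPM in WT and 2.21 ± 1.06 CPM in Pdgfra-Cre:LmnaF/F (SD, n = 4), with a log2 fold change of -0.04 ± 1.23 (SE). The other tested neighbours of *Lsamp* were *B4galt4*, a galactosyltransferase gene, with -0.25 ± 0.39 (SE), and *Upk1b*, a uroplakin gene, with -0.63 ± 1.71 (SE).

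Beside *Negr1*, *Zranb2*, 217.7 kb beyond it, had a log2 fold change of 0.52 ± 0.26 (SE) and *Ptger3*, a prostaglandin E receptor gene, 0.80 ± 1.33 (SE). On its other side *Fpgt* had -0.05 ± 0.29 (SE), *Lrriq3* -0.62 ± 1.46 (SE) and *Tnni3k* 0.25 ± 1.70 (SE). Around *Opcml* and *Ntm*, *Jam3*, a junctional adhesion molecule, had 0.16 ± 0.23 (SE), *Igsf9b*, an immunoglobulin-superfamily gene, 0.89 ± 1.05 (SE), *Snx19* -0.01 ± 0.25 (SE), and the matrix proteases *Adamts15* -0.21 ± 0.44 (SE) and *Adamts8* 0.57 ± 1.40 (SE). *Igsf11*, *Tigit*, *Cth* and *Spata19* did not pass the filter on low counts.

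Related genes were read from the same fit in 5 lists, which held 112 tested genes. Called genes among them were 1 of 112 (0.893%), namely *Thy1*, beside 0.407% of all genes tested. An unadjusted p under 0.05 was found for 11.9% of all genes tested, and DESeq2 called 303 (2.32%) and limma-voom 126 (0.967%) of them, and the counts for each list are to be read against these shares. In the list of other immunoglobulin-superfamily adhesion molecules, 16 of 32 tested genes lay above 0 and 16 below it, the median log2 fold change was -0.01, and none was called by edgeR, with 5 at an unadjusted p under 0.05. DESeq2 and limma-voom each called 1 of them, *Nectin1*, a cell junction protein of the nectin family. It was at 103.1 ± 41.0 CPM in WT and 44.2 ± 9.91 CPM in Pdgfra-Cre:LmnaF/F (SD, n = 4), with a log2 fold change of -1.21 ± 0.28 (SE, edgeR adjusted p = 0.0886). *Cadm3*, another neural adhesion molecule gene, was at 66.2 ± 27.1 and 14.5 ± 10.8 CPM (SD, n = 4), with a log2 fold change of -2.18 ± 0.59 (SE, edgeR adjusted p = 0.135). With no filter on low counts edgeR called *Cadm3* (adjusted p = 0.000694) and *Nectin1* (adjusted p = 0.0036), beside 274 of all 18957 genes.

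The other GPI-anchored surface proteins held the called gene. *Thy1*, which encodes a small GPI-anchored immunoglobulin-domain protein of fibroblasts, T cells and neurons, was at 132.9 to 304.9 CPM in WT and 35.6 to 48.5 CPM in Pdgfra-Cre:LmnaF/F. It fell by 2.18 ± 0.26 on the log2 scale (SE, edgeR adjusted p = 0.00273), and it was called in all 17 alternative fits. Of the 31 tested genes of this list, 1 was called lower and none higher, 20 lay below 0, and the median was -0.26 beside 0.02 over all genes. *Ly6e* was at 370.1 ± 134.1 and 151.8 ± 58.3 CPM (SD, n = 4), with a log2 fold change of -1.28 ± 0.32 (SE, edgeR adjusted p = 0.116), and 8 genes of the list had an unadjusted p under 0.05. DESeq2 called 2 genes of the list, *Thy1* and *Ly6e*, and limma-voom called 1, *Thy1*.

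None of the 29 tested genes that build or attach the GPI anchor was called by edgeR, DESeq2 or limma-voom, with 2 at an unadjusted p under 0.05 in edgeR and a median log2 fold change of -0.04. *Pigt*, a subunit of the transamidase that joins proteins to the anchor, had -0.80 ± 0.33 (SE, edgeR adjusted p = 0.364) and *Pigc* -0.62 ± 0.28 (SE, edgeR adjusted p = 0.408). Among surface proteases and phospholipases that can release adhesion proteins, with their inhibitors, none of 16 tested genes was called by edgeR, 4 had an unadjusted p under 0.05, and the median was 0.02. *Adam19* had -1.07 ± 0.28 (SE, edgeR adjusted p = 0.13) and *Adam17*, a broad sheddase, -0.78 ± 0.22 (SE, edgeR adjusted p = 0.147). DESeq2 called 4 genes of this list, *Adam19*, *Adam17* and the inhibitor *Timp2* lower and the inhibitor *Timp1* higher, and limma-voom called 1, *Adam19*. Of the fibroblast growth factor receptors, to which IgLONs have been linked, 0 of 4 tested genes were called by any of these tools, with 0 at an unadjusted p under 0.05 in edgeR. *Fgfr1*, at 374.4 ± 110.4 and 308.8 ± 58.2 CPM (SD, n = 4), had -0.28 ± 0.24 (SE), and *Fgfr2* had 0.97 ± 0.70 (SE).

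**Figure D4:**
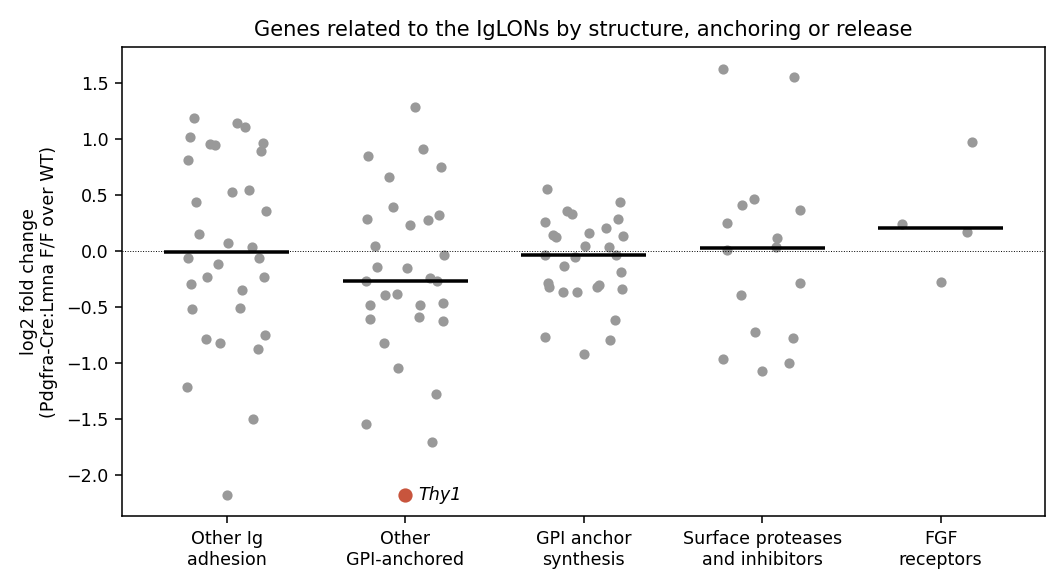
Log2 fold change of Pdgfra-Cre:LmnaF/F over WT (y axis) of the tested genes in 5 lists of genes related to the IgLONs (x axis). Points are genes, spread sideways for sight only, and lines are medians. The red point is *Thy1*, at -2.18, the called gene of these lists.

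The genes whose pattern over the 8 libraries was nearest to that of *Lsamp* were found by the root mean square difference of log2 CPM, each gene centred on its own mean. The nearest of 13035 genes was *Selenbp2* (0.32 log2 units), which encodes a selenium-binding protein, followed by *Aatk* (0.47), *Wfdc1* (0.52), *Lmna* (0.54) and *Fgf18* (0.60), a fibroblast growth factor gene. The median difference over all genes was 1.46. Like *Lsamp*, all 5 had every Pdgfra-Cre:LmnaF/F library below every WT library, with 4.50 to 6.41 CPM against 12.1 to 47.8 CPM for *Selenbp2* and 5.83 to 12.4 CPM against 54.3 to 101.3 CPM for *Wfdc1*. *Negr1* ranked 2046 (1.24 log2 units), *Iglon5* 5644 (1.42) and *Opcml* 6829 (1.48) in nearness to *Lsamp*. These ranks were read from the same libraries and describe likeness of pattern only.

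**Figure D5:**
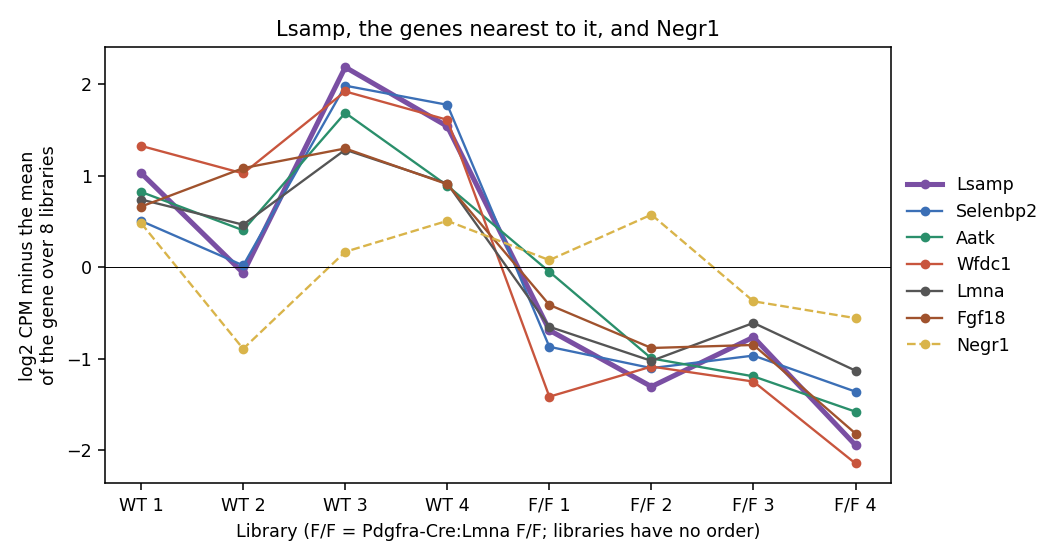
Log2 CPM of *Lsamp*, its 5 nearest genes and *Negr1* (y axis, minus the mean of each gene over the libraries) in the 8 libraries (x axis). *Lsamp* and *Selenbp2* differ by 0.32 log2 units over the libraries, and *Negr1* (dashed) differs from *Lsamp* by 1.24.

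Markers of cell types that could be present in the sort were set beside the *Lsamp* difference. The 5 markers of adventitial fibroblasts, a subset of fibroblasts around vessels, summed to 1917.6 to 2203.9 CPM in WT and to 296.3 to 983.2 CPM in Pdgfra-Cre:LmnaF/F, without overlap. Taken singly, *Pi16* and *Cd248* were lower without overlap, as were 3.97% of all genes tested. The ranges overlapped for *Sema3c* (208.8 to 274.6 CPM in WT, 80.9 to 217.3 CPM in Pdgfra-Cre:LmnaF/F), *Dpp4* (31.7 to 56.9, 11.3 to 57.2) and *Efemp1* (52.2 to 82.0, 9.21 to 86.9). All 5 had a log2 fold change below 0, with a median of -0.74. An unadjusted p under 0.05 in edgeR was found for 3 of 5, beside 11.9% of all genes tested. EdgeR and DESeq2 each called 1 of 5, beside 0.407% and 2.32% of all genes tested. That gene was *Cd248*, with -1.84 ± 0.32 (SE, edgeR adjusted p = 0.0255). *Pi16*, the most abundant of the 5, was at 1239.3 ± 135.4 CPM in WT and 435.4 ± 251.9 CPM in Pdgfra-Cre:LmnaF/F (SD, n = 4). Its log2 fold change was -1.51 ± 0.40 (SE, edgeR adjusted p = 0.134). Limma-voom called 2 of 5, *Cd248* and *Pi16*, beside 0.967% of all genes tested. The part of these cells in the *Lsamp* difference was not tested.

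Markers of Schwann cells and neurons, cells known to make IgLONs, were low in both genotypes. The 10 Schwann cell markers summed to 37.8 to 69.3 CPM in WT and 47.9 to 70.9 CPM in Pdgfra-Cre:LmnaF/F, with *Cdh19* the highest of them in mean CPM. The 10 neuron markers summed to 14.1 to 23.1 and to 2.99 to 32.2 CPM, with *Tubb3* the highest of them in mean CPM, while *Th* was at 0 in 6 of 8 libraries. Both ranges overlap between the genotypes, and only 7 of the 10 Schwann cell markers and 2 of the 10 neuron markers passed the filter on low counts and were tested, of which edgeR, DESeq2 and limma-voom called none, with 0 at an unadjusted p under 0.05 in edgeR. The 6 myocyte markers summed to 644.1 to 934.8 CPM in WT and 262.5 to 5397.2 CPM in Pdgfra-Cre:LmnaF/F, the highest being replicate 4, and without that library the log2 fold change of *Lsamp* was -2.31 ± 0.41 (SE) and that of *Negr1* -0.04 ± 0.32 (SE). The 6 epicardial and mesothelial markers summed to 11 to 45.8 CPM in WT and 6.67 to 15.7 CPM in Pdgfra-Cre:LmnaF/F, and all 6 had a log2 fold change below 0, as *Lsamp* did, with a median of -1.05, none called by edgeR, DESeq2 or limma-voom and 0 at an unadjusted p under 0.05 in edgeR. The 8 mural markers summed to 601.5 to 814.0 and 437.2 to 999.7 CPM, and the 6 endothelial markers to 224.9 to 377.1 and 131.4 to 395.3 CPM in WT and Pdgfra-Cre:LmnaF/F. In the same order, the 6 valve interstitial markers summed to 15.4 to 36 and 20.6 to 132.7 CPM, and the 7 leukocyte markers to 37.4 to 161.9 and 43.9 to 390.4 CPM. Of tested endothelial markers, 5 of 6 lay below 0 (median -0.31). Above 0 lay 4 of 5 myocyte, 4 of 5 leukocyte and 3 of 5 valve interstitial markers. Each of these lists had 1 gene at an unadjusted p under 0.05 in edgeR, beside 11.9% of all genes tested, and none called. Without overlap, *Cdh5* (40.8 to 62.8 CPM in WT, 8.13 to 38.3 CPM in Pdgfra-Cre:LmnaF/F) and *Fmod* (6.32 to 11.1, 0.209 to 6.31) were lower and *Prg4* (0 to 5.07, 6.57 to 121.6) higher. The summed ranges of all lists in this paragraph overlap, and the part of these cells in the *Lsamp* difference was not tested.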

How the data were processed

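The authors depleted ribosomal RNA, made strand-specific libraries, used HISAT2 with the mm10 genome, and deposited whole-number counts per gene symbol that featureCounts gave for GENCODE genes. The strand setting of the counting is not given in the sources used here. The deposited counts are not scaled for library size and do not include the RUV step that the methods name, and the lowest total of a listed gene is 4 counts over the 8 libraries.

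Members, lists and tests were chosen with earlier results of these data known. The test was that of edgeR 4.0.16 in R 4.3.3 (TMM factors, filterByExpr, quasi-likelihood F test, genotype as the only term, Benjamini-Hochberg adjustment over 13036 genes). Genes under an adjusted p of 0.05 are called, and SE is the log2 fold change divided by the square root of F. CPM uses TMM-scaled totals, and log2 CPM a prior count of 2. RPKM divides CPM by the union of exons in GENCODE M21. The alternatives were DESeq2 1.42.0, limma-voom (limma 3.58.1), other factors and filters, RUVr, a replicate block and fits that each omit a library. The procedure was tested on simulated counts.

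The genes named are the members, *Iglon5*, *Lmna*, the 3 listed genes on each side of a member, the 5 genes nearest to *Lsamp*, and of each list every called gene and the 2 with the lowest p; genes named as markers, as long genes, or as called by DESeq2 or limma-voom, were chosen after their values were seen. Each library is a separate mouse. Floors cover counting error only.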

Additional observations from a re-analysis of the deposited data

Results flagged for a closer look

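In the 42 groups of 4 libraries examined, 5 had a library far from the other 3. Chance gives about 1 in 20 for normally distributed values in separate groups. These groups share libraries and some values lie near the floor, so that rate need not hold here. *Ntm* was at 2.53 CPM in Pdgfra-Cre:LmnaF/F replicate 3 and at 0.0833 CPM in the next highest library of that genotype. The summed adventitial fibroblast markers were at 296.3 CPM in the same library and at 876.7 CPM in the next lowest. In Pdgfra-Cre:LmnaF/F replicate 4 the summed myocyte markers were at 5397.2 CPM (next highest 848.2 CPM) and the summed leukocyte markers at 390.4 CPM (next highest 91.8 CPM). The summed adipocyte markers reached 11.2 CPM in 1 Pdgfra-Cre:LmnaF/F library (next highest 1.92 CPM). *Lsamp* was at 17.8 CPM in replicate 3 and at 7.75 CPM in replicate 4, and neither value stood apart in this way.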

How the results depend on the processing

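The log2 fold change of *Lsamp* stayed between -2.78 and -2.11 and that of *Negr1* between -0.44 and -0.04 in the 8 fits that each left out a library, and that of *Opcml* lay between -2.29 and -0.31 and that of *Iglon5* between -2.11 and -0.98. None of these moved by as much as its SE in the reported fit, in any alternative fit that included the gene. Those SE were 0.42 for *Lsamp*, 0.32 for *Negr1*, 1.37 for *Opcml* and 1.27 for *Iglon5*. The number of genes called was 53 in the reported fit, 303 with DESeq2, 274 with no filter on low counts, 126 with limma-voom, 83 with 1 RUVr factor, 455 with DESeq2 and 1 RUVr factor, and from 13 to 76 when a library was left out. Of the related lists, 1 gene was called in the reported fit, 7 with DESeq2, 8 with no filter, 3 with limma-voom, 7 with DESeq2 and 1 RUVr factor, and from 1 to 3 when a library was left out. Beyond the reported edgeR fit, the calls of *Nectin1*, *Ly6e*, *Adam19*, *Adam17* and others depend on the test, the filter on low counts or the library left out. EdgeR with no filter called *Nectin1*, *Cadm3*, *Ly6e* and *Adam19*, among others. The causes were not tested.

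With the replicate block 36 genes were called, and the log2 fold change of *Lsamp* was -2.38. Deviations of libraries with the same replicate number correlated at -0.027, -0.03, -0.004 and 0.04. The sources used here do not say whether the numbers pair the libraries, and correlations this small cannot decide it. On the longest transcript the mean RPKM in WT became 9.10 for *Lsamp*, 12 for *Negr1*, 0.387 for *Opcml* and 0.182 for *Ntm*, and in Pdgfra-Cre:LmnaF/F 1.61 for *Lsamp* and 10.7 for *Negr1*, since the divisor is shorter. With a prior count of 0.5 the 5 genes nearest to *Lsamp* were the same 5. Depth limits *Opcml*, *Ntm* and *Iglon5*, with 0 to 37 counts per library.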
